A study of Mus musculus with 16 samples.

Results

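Glycolysis turns glucose into pyruvate and lactate, and many of its enzymes and transporters are also induced when oxygen is low. The transcripts of such genes were followed in KPC1199 cells, a mouse pancreatic ductal adenocarcinoma line, with and without a CRISPR guide against Sin3B, the scaffold of a SIN3-histone deacetylase corepressor complex, and with and without interferon gamma (IFNg). A list of 36 genes was used, and 35 of them were found by symbol in both count tables, which hold 55414 and 56980 genes. The remaining gene, Ero1l, is listed under its current symbol Ero1a; its values are given beside those of the 35 and are not counted with them. Membership rests on gene names and uses no threshold on the values.

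The 16 RNA-seq libraries came from 2 experiments. In the untreated experiment, 2 libraries carried the control guide (sgCtrL) and 2 the guide against Sin3B (Sin3Bsg1). The IFNg experiment had 3 libraries for each guide without IFNg and 3 for each guide with IFNg (10 ng/ml for 24 h). KPC1199 derives from a spontaneous tumor of the KPC mouse, a model driven by a Pdx-cre transgene in the pancreas that also carries mutant Trp53, so every group shares that background. The lines were made with the lentiCRISPR v2 vector and puromycin selection, no isolation of single clones is described, and only 1 guide against Sin3B was sequenced. Labels give no source of the replicates beyond a number, so p-values measure the spread between these libraries, which may be technical.

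As background, the transcription factor subunit encoded by Hif1a is hydroxylated by the prolyl hydroxylases Egln1 and Egln3 when oxygen is plentiful, which marks it for destruction. When oxygen falls it pairs with Arnt and binds short DNA motifs near genes for glucose uptake, glycolysis, lactate export, acid handling and new vessels. Pancreatic ductal tumors are known for high glucose uptake and for low oxygen in the tissue. These cells were grown in culture, and no sample was kept in low oxygen.

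Libraries of the untreated experiment held 29683181 to 32311721 counts each, and those of the IFNg experiment 18128055 to 27056903. Sin3b itself was at 83.4 to 88.6 CPM, its count scaled to the size of the library, in the untreated sgCtrL libraries and at 34.1 to 36.5 CPM in the Sin3Bsg1 libraries, and its log2 fold change was −1.24 without IFNg and −1.22 with IFNg, so part of the transcript remained. Of the ductal epithelial markers, 7 of 7 were expressed in every group, with summed levels of 3181.6 to 6401.4 CPM. The immune list summed to 4.37 to 7.06 CPM, with Cd68, a lysosomal protein of macrophages that other cells also make, at up to 176 counts and the defining markers Ptprc and Cd3e at no more than 3 and 0 counts in any library. The 7 fibroblast markers summed to 100 to 101 CPM in untreated sgCtrL and 30.6 to 33.6 CPM in untreated Sin3Bsg1, and to 262 to 269 and 224 to 234 CPM in the same guides without IFNg. That sum came mostly from Pdgfra, with Dcn and Lum at no more than 6 counts in any library. The ductal markers were also higher in Sin3Bsg1, 7 of 7 past the threshold in the untreated experiment, 4 without IFNg and 6 with IFNg. The part of these marker differences in the results was not tested. In bulk samples, fewer cells with a transcript and less of it per cell cannot be told apart. In the sgCtrL with IFNg group, replicate 1 stood apart from the other replicates, with a mean chi-square of 23.2 and 19.5 per gene against them, compared with 4.12 between those others. Replicate 1 of Sin3Bsg1 with IFNg was also the farther one, with 6.91 and 9.63 against 3.52 between its other replicates, while all other pairs were between 2.43 and 4.10. Within sgCtrL with IFNg, several abundant glycolytic transcripts were highest in replicate 1, for example Aldoa at 1281 CPM against 1047 and 1015 CPM.

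The promoters of 4 of the genes are shown. Hk2, Pfkp and Pfkfb3 were among the 5 genes higher in Sin3Bsg1 in each of the 3 genotype comparisons. Car12 differed in opposite directions between the experiments. Each promoter is the RefSeq window of 250 bases before to 50 bases after the first listed transcription start on GRCm38.p6. It is written 5′ to 3′ on the strand of the gene. Capitals mark the core letters ACGTG and GCGTG of the HIF motif on either strand, with overlapping matches counted as 1. The Hk2 window is at chr6:82774405-82774704 on the minus strand and holds 2 matches, and the Pfkp window is at chr13:6648722-6649021 on the minus strand and holds 4. For Pfkfb3, the window at chr2:11553880-11554179 on the minus strand holds 1 match. The Car12 window at chr9:66713436-66713735 on the plus strand holds 0. Pkm and Vegfa, also higher in all 3 comparisons but not shown, had 0 matches in their first listed window. Each had 2 in its second listed window, so the genes shown do not stand for all 5.
Hk2: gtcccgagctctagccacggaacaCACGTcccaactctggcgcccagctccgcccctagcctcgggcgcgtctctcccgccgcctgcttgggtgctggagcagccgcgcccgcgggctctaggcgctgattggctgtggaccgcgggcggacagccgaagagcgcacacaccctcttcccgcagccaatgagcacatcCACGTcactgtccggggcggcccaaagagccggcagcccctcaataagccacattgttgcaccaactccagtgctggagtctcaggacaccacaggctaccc
Pfkp: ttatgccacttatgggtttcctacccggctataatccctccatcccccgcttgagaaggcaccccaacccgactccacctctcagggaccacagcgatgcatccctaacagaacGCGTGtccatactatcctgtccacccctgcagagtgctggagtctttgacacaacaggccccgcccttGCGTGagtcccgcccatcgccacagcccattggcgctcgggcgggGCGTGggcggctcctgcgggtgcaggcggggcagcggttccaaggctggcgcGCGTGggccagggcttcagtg
Pfkfb3: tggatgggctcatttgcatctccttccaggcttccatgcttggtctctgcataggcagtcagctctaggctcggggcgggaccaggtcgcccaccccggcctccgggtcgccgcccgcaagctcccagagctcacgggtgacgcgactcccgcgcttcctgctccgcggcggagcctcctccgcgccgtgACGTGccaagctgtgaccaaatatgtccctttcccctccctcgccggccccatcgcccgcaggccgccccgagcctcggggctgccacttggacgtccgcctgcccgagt
Car12: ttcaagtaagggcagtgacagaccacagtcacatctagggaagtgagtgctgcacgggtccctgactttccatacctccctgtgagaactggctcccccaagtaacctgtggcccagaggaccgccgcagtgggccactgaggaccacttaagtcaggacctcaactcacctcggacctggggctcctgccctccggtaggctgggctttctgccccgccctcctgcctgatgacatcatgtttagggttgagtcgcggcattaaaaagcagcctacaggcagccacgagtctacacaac

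The promoter table had an entry for 33 of the 35 genes and none for Slc2a3 and Ndrg1. A match stood in the first listed promoter of 24 of those 33 genes (72.7%), against 43.8% of all 27025 genes of the table and 61.8% of the 10917 of them that were tested for expression. With any listed promoter counted, 29 of 33 genes had a match (87.9%), against 46.7% of all genes and 65.8% of those tested. The 33 genes had 54 listed promoters and the 27025 genes 32851, so this count gave the 33 more windows per gene. By promoter, 75.9% of the 54 and 43.8% of the 32851 had a match. Gpi1, Tpi1, Eno2 and Car12 had none. A match is only a run of letters and says nothing on binding in these cells.

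Sin3Bsg1 and sgCtrL were compared to ask how loss of Sin3B moved these transcripts, first in the untreated experiment. Of the 34 genes tested there, 17 passed the threshold (edgeR quasi-likelihood test, Benjamini-Hochberg adjusted p under 0.05), 10 higher and 7 lower in Sin3Bsg1. Over all genes tested, 31.1% passed, 15.1% of them higher and 16% lower as shares of the genes tested. The changes were small, with the largest being 1.62-fold for Car12, and their median log2 fold change was 0.01 over the 34 genes and 0.00 over all genes. In the IFNg experiment without IFNg, 11 of 34 genes passed, all of them higher, against 17.2% of all genes in either direction, 7.89% higher and 9.33% lower. With IFNg, 13 of 34 passed, 12 higher and 1 lower, against 16.5% of all genes in either direction, 8.62% higher and 7.9% lower. The members were more abundant than the typical gene, with a median of 119 CPM against 24.9 CPM over all genes tested in the untreated experiment and 170 against 22.1 CPM in the IFNg experiment, and the part of abundance in these counts was not tested. Leaving out any 1 library in turn kept 11 of the 17 calls in the untreated experiment, 7 of 11 without IFNg and 9 of 13 with IFNg. A fit on just the 6 libraries with IFNg kept 5 of 13, which were Hk2, Pfkp, Pfkfb3, Pkm and Pdk1.

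**Figure D1:**
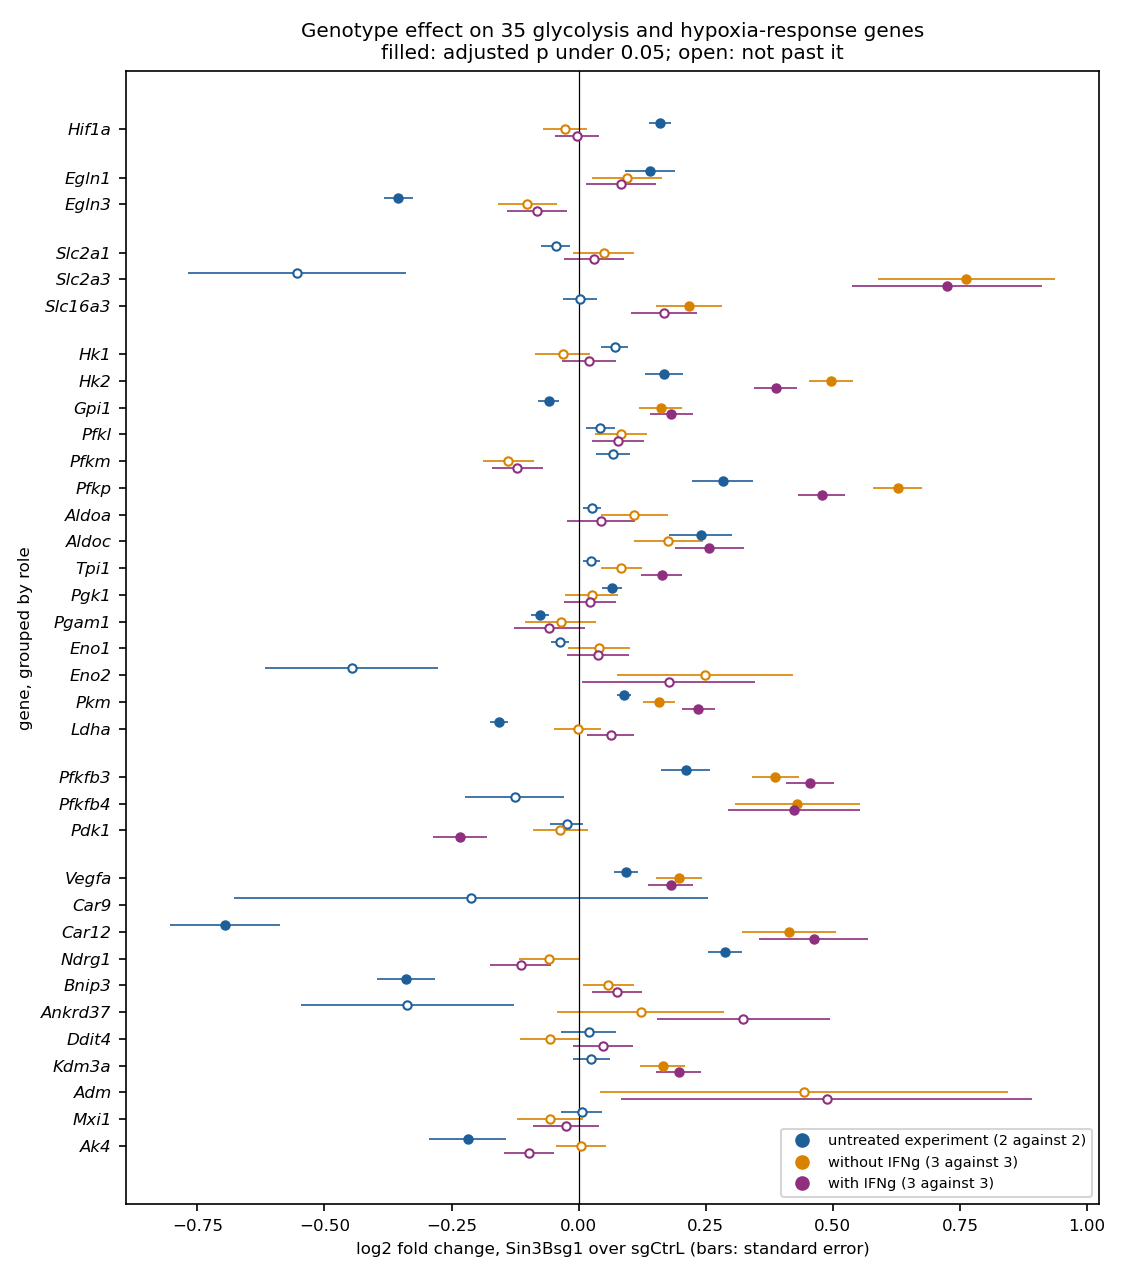
Log2 fold change of Sin3Bsg1 over sgCtrL for each of the 35 genes (vertical axis, grouped by role) in the untreated experiment, without IFNg and with IFNg; points are edgeR estimates, bars standard errors, and filled points passed an adjusted p of 0.05. Estimates beyond 0.5 in size belong to Slc2a3, Pfkp and Car12, and Car12 and Slc2a3 sit on opposite sides of 0 in the 2 experiments.

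A set of 5 genes was past the threshold and higher in all 3 genotype comparisons: Hk2, Pfkp, Pfkfb3, Pkm and Vegfa. No gene was lower in all 3. The share of all genes that were higher or lower in all 3 was not counted. Over all genes, 1487 of 13847 passed both in the untreated experiment and without IFNg, 89.5% of them in the same direction. Hk2, the hexokinase that commits glucose to the pathway and is raised in many tumors, was at 87.6 and 90.3 CPM in untreated sgCtrL and at 102 and 97.8 CPM in untreated Sin3Bsg1. Without IFNg it was at 163, 170 and 175 CPM in sgCtrL and at 240, 236 and 241 CPM in Sin3Bsg1. With IFNg it was at 312, 313 and 294 CPM against 405, 403 and 395 CPM. The groups did not overlap in any of the 3 comparisons. The log2 fold changes were 0.17 ± 0.04 (SE), 0.50 ± 0.04 and 0.39 ± 0.04, with adjusted p of 0.0024, 8.6e-07 and 1.1e-05.

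Pfkp, the platelet-type subunit of phosphofructokinase, the rate-setting enzyme of glycolysis, followed the same order. It was at 30.8 and 29.5 CPM in untreated sgCtrL and at 36.3 and 37.1 CPM in untreated Sin3Bsg1. Its levels without IFNg were 37.2, 37.3 and 36.6 CPM in sgCtrL and 57.1, 58.3 and 56.2 CPM in Sin3Bsg1, and with IFNg they were 61.5, 62.7 and 57.8 CPM against 83.9, 84.0 and 85.7 CPM. Every Sin3Bsg1 library was above every sgCtrL library of the same comparison. The log2 fold changes were 0.28 ± 0.06, 0.63 ± 0.05 and 0.48 ± 0.05 (adjusted p = 0.0016, 2.0e-07 and 2.4e-06). Its deposited counts were not whole numbers in any of the 16 libraries, as was also the case for Pkm and Bnip3, so they are estimates.

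Pfkfb3 makes the allosteric activator of phosphofructokinase and is a known HIF target. It was at 50.2 and 54.5 CPM in untreated sgCtrL and at 60.2 and 61.1 CPM in untreated Sin3Bsg1, and the call there was lost without sgCtrL replicate 1 (adjusted p = 0.0568). Without IFNg its levels were 134, 139 and 138 CPM against 173, 180 and 184 CPM, and with IFNg they were 69.0, 73.2 and 75.8 CPM against 98.4, 102 and 98.4 CPM. The genotype groups stayed apart in each setting, with log2 fold changes of 0.21 ± 0.05, 0.39 ± 0.05 and 0.46 ± 0.05.

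**Figure D2:**
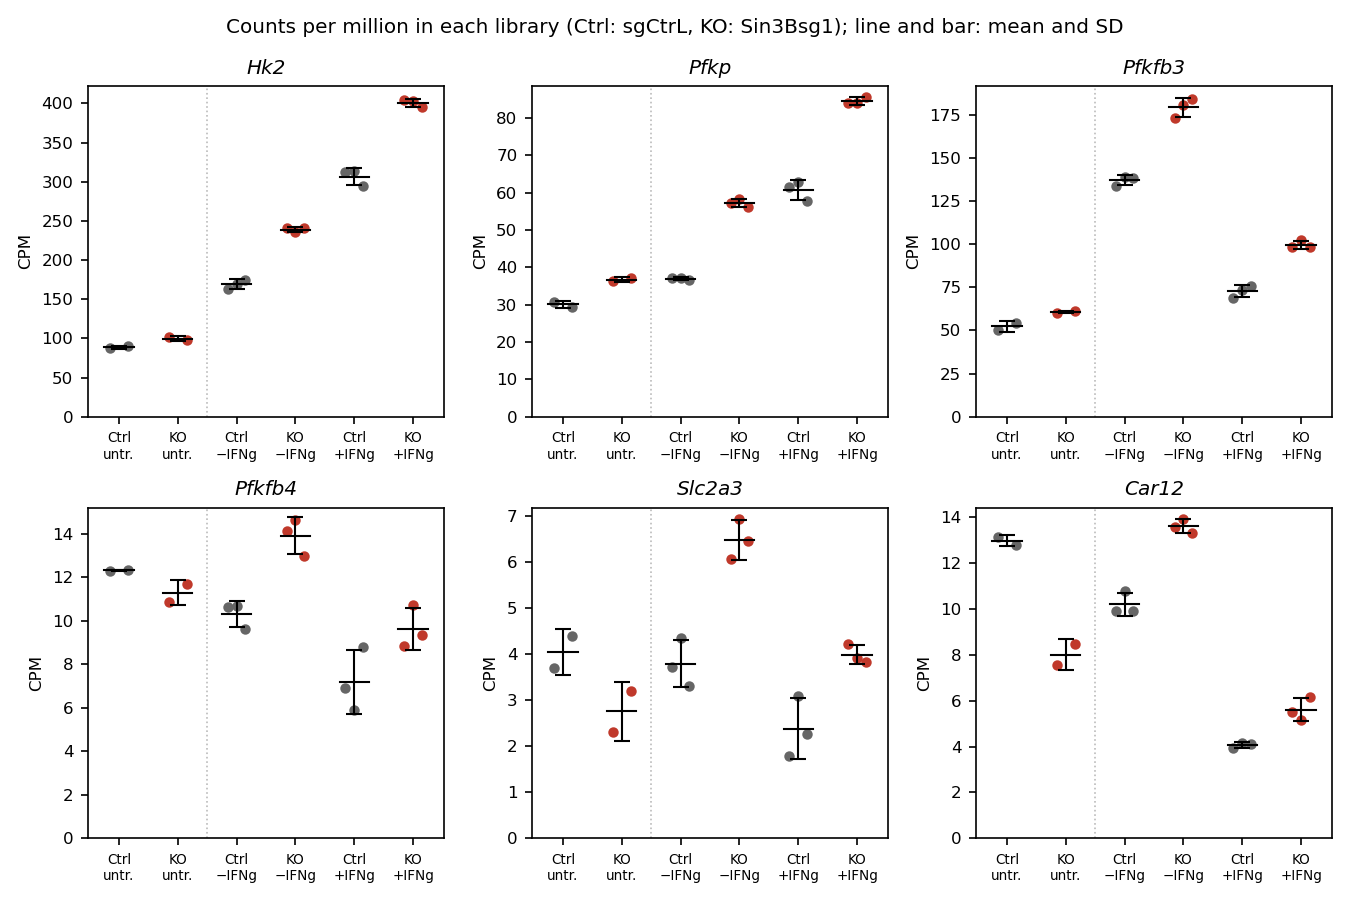
CPM (vertical axes, from 0) in each of the 16 libraries for Hk2, Pfkp, Pfkfb3, Pfkfb4, Slc2a3 and Car12; grey points are sgCtrL, red points Sin3Bsg1, lines and bars the mean and SD of 2 or 3 libraries, and the dotted line separates the experiments. Hk2 and Pfkp were higher with Sin3Bsg1 and with IFNg, while Pfkfb3, Pfkfb4, Slc2a3 and Car12 were lower with IFNg.

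Pkm, pyruvate kinase of the last step, and Vegfa, the main growth factor for blood vessels, moved less. Pkm was at 2976.5 and 2974 CPM against 3157 and 3173 CPM in the untreated experiment, and its log2 fold changes were 0.09 ± 0.01, 0.16 ± 0.03 and 0.24 ± 0.03. Vegfa rose by 0.09 ± 0.02, 0.20 ± 0.04 and 0.18 ± 0.05 on the log2 scale, and its call with IFNg was lost without Sin3Bsg1 replicate 2 of that group (adjusted p = 0.0523). Ero1a, an oxidase of disulfide bond formation that stands in for the listed Ero1l, was also higher in each comparison, by 0.17 ± 0.06, 0.24 ± 0.06 and 0.24 ± 0.06.

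Of all 15 glycolytic enzymes, Hk2, Pfkp and Pkm included, 5 rose and 3 fell in the untreated experiment (53.3% passed, against 31.1% of all genes). Without IFNg 4 rose (26.7% against 17.2%) and with IFNg 6 rose (40% against 16.5%), with none lower in either. The differences of the enzymes not yet described were mixed and mostly small. Gpi1, the isomerase after hexokinase, was 0.06 lower on the log2 scale in the untreated experiment but 0.16 ± 0.04 and 0.18 ± 0.04 higher without and with IFNg. Its first value was −0.04 without replicate 2 of untreated sgCtrL (adjusted p = 0.263) or of untreated Sin3Bsg1 (0.192), and its second lost the call in 3 fits with a library left out (adjusted p from 0.0549 to 0.0669). Ldha, which makes lactate from pyruvate, fell by 0.16 ± 0.02 in the untreated experiment (adjusted p = 2.9e-06), from 1405 and 1415 CPM to 1283 and 1247 CPM. In the IFNg experiment its genotype effect was −0.00 ± 0.05 and 0.06 ± 0.05, neither past the threshold. Aldoc, the brain-type aldolase, rose by 0.24 ± 0.06 in the untreated experiment, or by 0.16 without sgCtrL replicate 1 (adjusted p = 0.131), and by 0.26 ± 0.07 with IFNg, a call lost without replicate 3 of sgCtrL (adjusted p = 0.081) or replicate 2 of Sin3Bsg1 (0.0685) with IFNg. Small calls of Pgk1 (0.07) and Pgam1 (−0.08) in the untreated experiment and of Tpi1 (0.16) with IFNg completed the enzymes that passed. That of Pgk1 was lost in 3 of 4 fits with a library left out (adjusted p from 0.0668 to 0.0893). Pgam1 shares sequence with named copies in the table, and up to 1068.6 counts of a library in the untreated table went to its copy Pgam1-ps2, against 21861 to 22967 for Pgam1. Hk1, Pfkl, Pfkm, Aldoa, Eno1 and Eno2 passed in no genotype comparison.

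HIF and its sensors differed in the untreated experiment. Hif1a was at 380 and 372 CPM in sgCtrL and at 420 and 420 CPM in Sin3Bsg1, a rise of 0.16 ± 0.02 (adjusted p = 2.4e-05). Without IFNg its effect was −0.03 ± 0.04, with libraries at 731 to 753 CPM in sgCtrL and 705 to 741 CPM in Sin3Bsg1, which overlapped. Egln3, a hydroxylase that is itself a HIF target, was lower in untreated Sin3Bsg1, at 195 and 185 CPM against 244 and 242 CPM (log2 −0.36 ± 0.03, adjusted p = 8.0e-08). Its effects of −0.10 ± 0.06 and −0.08 ± 0.06 in the IFNg experiment did not pass. Egln1, the main hydroxylase, rose by 0.14 ± 0.05 in the untreated experiment, a call lost in 3 of the 4 fits with a library left out (adjusted p up to 0.228 without Sin3Bsg1 replicate 2).

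Among the transporters, Slc2a1, the basal glucose transporter, passed in no comparison. Slc2a3, a high-affinity glucose transporter, was scarce, at 1.79 to 6.92 CPM across the 16 libraries. It was at 3.72, 4.34 and 3.32 CPM in sgCtrL and 6.05, 6.92 and 6.45 CPM in Sin3Bsg1 without IFNg (log2 0.76 ± 0.17, adjusted p = 0.0061). With IFNg the levels were 1.79, 3.10 and 2.25 CPM against 4.22, 3.92 and 3.82 CPM (0.73 ± 0.19, adjusted p = 0.014), a call lost without Sin3Bsg1 replicate 1 of that group (adjusted p = 0.0508). In the untreated experiment the order was the other way, 3.70 and 4.39 CPM against 2.30 and 3.21 CPM, and did not pass (−0.55 ± 0.21, adjusted p = 0.061). Slc16a3, the lactate exporter that HIF induces, rose by 0.22 ± 0.07 without IFNg, a call lost whichever of the 6 libraries of that comparison was left out (adjusted p from 0.0515 to 0.105).

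The regulators of flux beside Pfkfb3 were Pfkfb4, its paralog, and Pdk1, a kinase that inhibits pyruvate dehydrogenase. Pfkfb4 was at 10.6, 10.7 and 9.63 CPM in sgCtrL and at 14.1, 14.6 and 13.0 CPM in Sin3Bsg1 without IFNg (log2 0.43 ± 0.12, adjusted p = 0.024). With IFNg it was at 6.91, 5.89 and 8.78 CPM against 8.81, 10.7 and 9.32 CPM (0.42 ± 0.13, adjusted p = 0.035). These groups were apart by little, and the first call was lost in 5 fits with a library left out (adjusted p from 0.0543 to 0.0971). The second was lost without replicate 2 of sgCtrL with IFNg (0.29, adjusted p = 0.148) and without replicate 2 or 3 of Sin3Bsg1 with IFNg (adjusted p = 0.155 and 0.0633). Pdk1 was 0.23 ± 0.05 lower with IFNg, at 150, 151 and 155 CPM against 196, 169 and 173 CPM, and still 0.15 lower without the sgCtrL library of 196 CPM (adjusted p = 0.0112).

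The other hypoxia-response genes did not move as a block. Car12, a carbonic anhydrase of the cell surface that helps tumor cells shed acid, was at 13.1 and 12.8 CPM in untreated sgCtrL and at 7.54 and 8.49 CPM in untreated Sin3Bsg1 (log2 −0.70 ± 0.11, adjusted p = 0.0001). Without IFNg it was higher in Sin3Bsg1, at 13.6, 13.9 and 13.3 CPM against 9.92, 10.8 and 9.89 CPM (0.41 ± 0.09, adjusted p = 0.0051), and with IFNg it was at 5.51, 5.17 and 6.14 CPM against 3.93, 4.16 and 4.10 CPM (0.46 ± 0.11). No library of one genotype overlapped the other in any of the 3 comparisons. Kdm3a, a histone demethylase, rose by 0.16 ± 0.04 and 0.20 ± 0.04 without and with IFNg, the first a call lost in 3 fits with a library left out (adjusted p up to 0.0755). In the untreated experiment Ndrg1, a stress-response gene, rose by 0.29 ± 0.03, while Bnip3, which drives removal of mitochondria, fell by 0.34 ± 0.06 and Ak4, an adenylate kinase of mitochondria, fell by 0.22 ± 0.08. The Ak4 call was lost whichever untreated library was left out (adjusted p from 0.0633 to 0.171). Ndrg1, Bnip3 and Ak4 passed in neither genotype comparison of the IFNg experiment. Ankrd37, Ddit4 and Mxi1 passed in no genotype comparison. Car9 was under 1 CPM in every library and was tested in the untreated experiment alone, where it did not pass, and Adm, at 0.302 to 1.0006 CPM in the IFNg experiment, was tested in the IFNg experiment alone, where it did not pass either.

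Whether the genotype effect was the same in the 2 experiments was tested with an interaction term over the 4 untreated libraries and the 6 libraries without IFNg, joined by gene identifier. It passed for 16 of 35 genes, against 13.6% of all genes, 6.8% higher and 6.8% lower. In 13 of them the effect was higher in the IFNg experiment and in 3 (Hif1a, Pfkm and Ndrg1) lower. The largest differences were 1.32 ± 0.25 for Slc2a3, 1.12 ± 0.13 for Car12 and 0.56 ± 0.13 for Pfkfb4 on the log2 scale. For Hk2 and Pfkp, which were higher in both experiments, the effect was larger in the IFNg experiment by 0.34 ± 0.05 and 0.35 ± 0.07. Leaving out 1 of the 10 libraries at a time lost the call of Pfkm in 6 fits, Pfkfb3 in 8, Kdm3a and Ak4 in 9 each, and Slc16a3 without sgCtrL untreated replicate 1 (adjusted p = 0.056), and that of Pfkfb3 fell to 0.12 without sgCtrL untreated replicate 2 (adjusted p = 0.353). Of the 7 genes past the threshold in both experiments, 5 had the same sign and 2, Gpi1 and Car12, the opposite one, while 89.5% of all 1487 genes past it in both had the same sign. Across the 33 genes tested in both, the effects had a Pearson r of −0.19 and a Spearman rho of 0.00, against r = 0.32 across 13847 genes, all from the same 10 libraries. The experiments also differed in level: Ak4 was at 22.3 ± 0.38 CPM (SD, n = 2) in untreated sgCtrL and 63.5 ± 0.86 CPM (n = 3) in sgCtrL without IFNg, and Pfkfb3 at 52.4 ± 3.0 and 137 ± 2.9 CPM. The labels name no batch or sequencing run, so experiment and any batch cannot be told apart here. The 2 count tables also differed in make-up, with 324 assembled loci in the untreated one and 0 in the other. The fall of the fibroblast markers Pdgfra (−1.78) and Pdgfrb (−1.14) in untreated Sin3Bsg1 was also far from their effects without IFNg (−0.26 and 0.19).

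**Figure D3:**
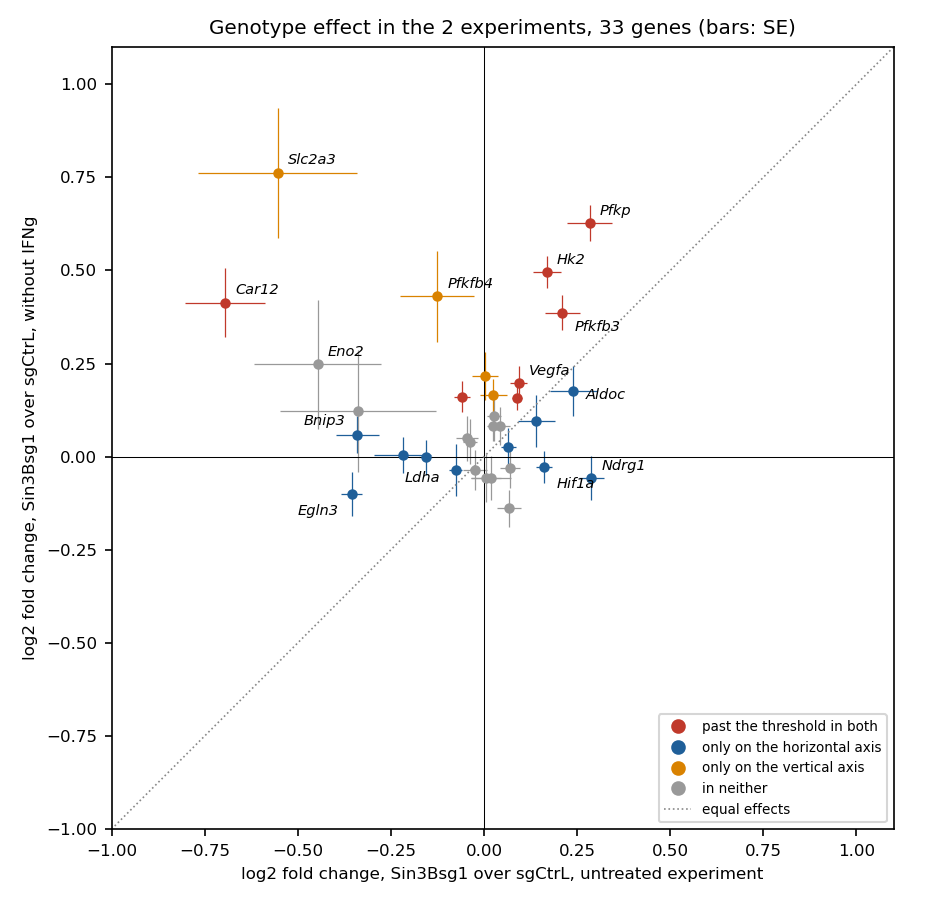
Genotype effect (log2 fold change, Sin3Bsg1 over sgCtrL, with SE bars) in the untreated experiment (horizontal) against the IFNg experiment without IFNg (vertical) for the 33 genes tested in both; colors give where the adjusted p was under 0.05 and the dotted line marks equal effects. Hk2, Pfkp and Pfkfb3 lie above the line at upper right, whereas Car12 and Slc2a3 lie at upper left, Slc2a3 without passing in the untreated experiment.

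Within the IFNg experiment the genotype effects without and with IFNg were alike. The 10 genes past the threshold in both (Slc2a3, Hk2, Gpi1, Pfkp, Pfkfb3, Pfkfb4, Pkm, Vegfa, Car12 and Kdm3a) were each higher in Sin3Bsg1, and across the 34 genes the effects had r = 0.94, against 0.57 across 14912 genes, from 6 libraries on either side. The share of all genes past the threshold in both, and their direction, was not counted. The 34 genes were more abundant, at a median of 170 against 22.1 CPM, and the part of abundance in r was not tested. The interaction of genotype and IFNg passed for 0 of 34 genes by edgeR and 0 by DESeq2, against 0.114% of all genes by edgeR, 0.0805% higher and 0.0335% lower. At an unadjusted p under 0.05 it gave 2, Pdk1 (−0.20 ± 0.08) and Pfkp (−0.15 ± 0.07). Estimates ran from −0.20 to 0.20 over the 34 genes, and for Hk2 it was −0.11 ± 0.06. An interaction that misses the threshold does not show that the IFNg effect was equal in the 2 genotypes.

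Libraries with and without IFNg were compared within each genotype, and genes of the list changed in both directions, by up to 2.51-fold in sgCtrL and 2.43-fold in Sin3Bsg1. In sgCtrL, 17 of 34 passed, 5 higher and 12 lower, against 30.2% of all genes, 15.7% higher and 14.5% lower. In Sin3Bsg1, 14 of 34 passed, 4 higher and 10 lower, against 28.4% of all genes, 16.1% higher and 12.3% lower. Scaling by library totals alone gave 3 higher and 18 lower in each genotype, so the split depended on the scaling. Markers of other cells also moved with IFNg: of the fibroblast list Acta2 rose by 4.10 in sgCtrL and 3.55 in Sin3Bsg1 on the log2 scale, Pdgfra fell by 0.50 and 0.45 and Pdgfrb by 0.61 and 0.53, and the acinar gene Cela1 fell by 0.77 and 0.85. Of the 7 ductal markers 5 passed in each genotype, 1 higher and 4 lower in sgCtrL and 2 higher and 3 lower in Sin3Bsg1. Their part in the result was not tested. The same sign was seen in all 14 genes past the threshold in both genotypes and in 99.9% of the 3215 such genes of the table, which are 21.6% of those tested, and r across the 34 genes was 0.98 against 0.86 across all genes.

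The rises were in the hexokinases, Pfkp and Pgk1. Hk2 rose most, by 0.85 ± 0.04 in sgCtrL (1.81-fold, adjusted p = 2.5e-10) and 0.75 ± 0.04 in Sin3Bsg1 (1.68-fold). Pfkp rose by 0.71 ± 0.05 and 0.56 ± 0.05, and Hk1, the housekeeping hexokinase, by 0.28 ± 0.05 and 0.33 ± 0.05. Pgk1, the first enzyme to yield ATP, rose by 0.19 ± 0.05 and 0.18 ± 0.05, calls that were lost with library totals alone (0.12 and 0.10), without replicate 2 of sgCtrL without IFNg in sgCtrL (adjusted p = 0.0525), and in 4 fits with a library left out in Sin3Bsg1 (adjusted p up to 0.0992). In sgCtrL, Aldoa rose by 0.20 ± 0.07, a value that rested on replicate 1 with IFNg and was 0.08 without it (adjusted p = 0.0946), and Pgk1 was 0.12 without that library.

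Pfkfb3, Pfkfb4, Slc2a3, Car12 and Vegfa fell with IFNg. Each of them was higher in Sin3Bsg1 than in sgCtrL in this experiment. Car12 fell most, from 10.2 ± 0.50 to 4.06 ± 0.12 CPM in sgCtrL and from 13.6 ± 0.30 to 5.61 ± 0.49 CPM in Sin3Bsg1 (SD, n = 3 each), which is 2.51-fold and 2.43-fold. Pfkfb3 fell by 0.92 ± 0.05 and 0.85 ± 0.05 on the log2 scale, whereas Pfkp, the subunit of the enzyme it activates, rose. Pfkfb4 fell by 0.53 in both genotypes, Slc2a3 by 0.66 and 0.70, and Vegfa by 0.24 and 0.26. The Slc2a3 call in sgCtrL was lost without replicate 2 of sgCtrL without IFNg (adjusted p = 0.0821). Smaller falls came from Ddit4, an inhibitor of growth signaling (−0.36 and −0.26), Pfkm (−0.29 and −0.27), Hif1a (−0.25 and −0.22), Pfkl (−0.22 and −0.23) and Ndrg1 (−0.19 and −0.24). The Ndrg1 call in sgCtrL was lost in 5 fits with a library left out (adjusted p from 0.0608 to 0.0978). Aldoc and Ldha passed in sgCtrL alone, at −0.26 and −0.17, against −0.18 and −0.11 in Sin3Bsg1, and their interaction terms (0.08 ± 0.10 and 0.06 ± 0.07) did not pass. The Aldoc call was lost without replicate 1 of sgCtrL without IFNg (adjusted p = 0.054) or replicate 3 of sgCtrL with IFNg (0.0508). Leaving out a library in turn kept 12 of the 17 calls in sgCtrL and 13 of the 14 in Sin3Bsg1.

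**Figure D4:**
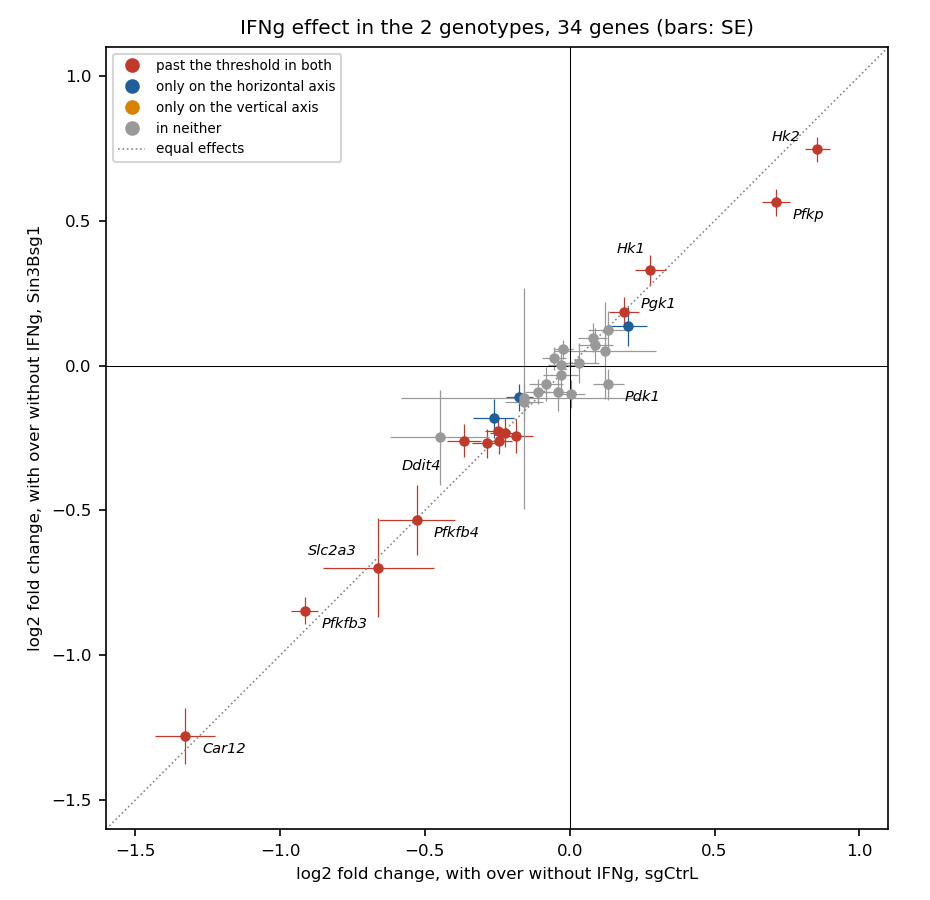
IFNg effect (log2 fold change, with over without IFNg, with SE bars) in sgCtrL (horizontal) against Sin3Bsg1 (vertical) for the 34 genes tested; colors give where the adjusted p was under 0.05 and the dotted line marks equal effects. The genes lie along the line from Car12 at lower left to Hk2 at upper right.

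Levels of paralogs were compared per transcript length, as TPM calculated with the gene lengths in the tables. Hk1 was above Hk2 in untreated sgCtrL, at 110 ± 2.8 against 33.1 ± 0.66 TPM (SD, n = 2), where Hk2 held 23.2% of the sum. The share of Hk2 was 24.4% in untreated Sin3Bsg1, 36.7% and 45.5% without IFNg in sgCtrL and Sin3Bsg1, and 46.4% and 52.7% with IFNg. Hk2 was thus the higher of the pair in Sin3Bsg1 with IFNg, at 151 ± 6.7 against 136 ± 9.2 TPM (n = 3), and its share was 52.2 to 53.4% in those libraries and 44.8 to 47.5% in sgCtrL with IFNg. Of the phosphofructokinase subunits, Pfkl led in every group with 49.5 to 56.9% of the sum. Pfkp went from 13.0% in sgCtrL without IFNg to 18.6% in Sin3Bsg1, 22.5% with IFNg and 28.6% with both, while Pfkm, the muscle-type subunit, went from 30.1% to 25.4%, 26.1% and 21.9%. With IFNg, Pfkp was above Pfkm in Sin3Bsg1 (65.7 ± 1.7 against 50.3 ± 2.9 TPM) and below it in sgCtrL (47.0 ± 1.5 against 54.6 ± 2.7 TPM).

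**Figure D5:**
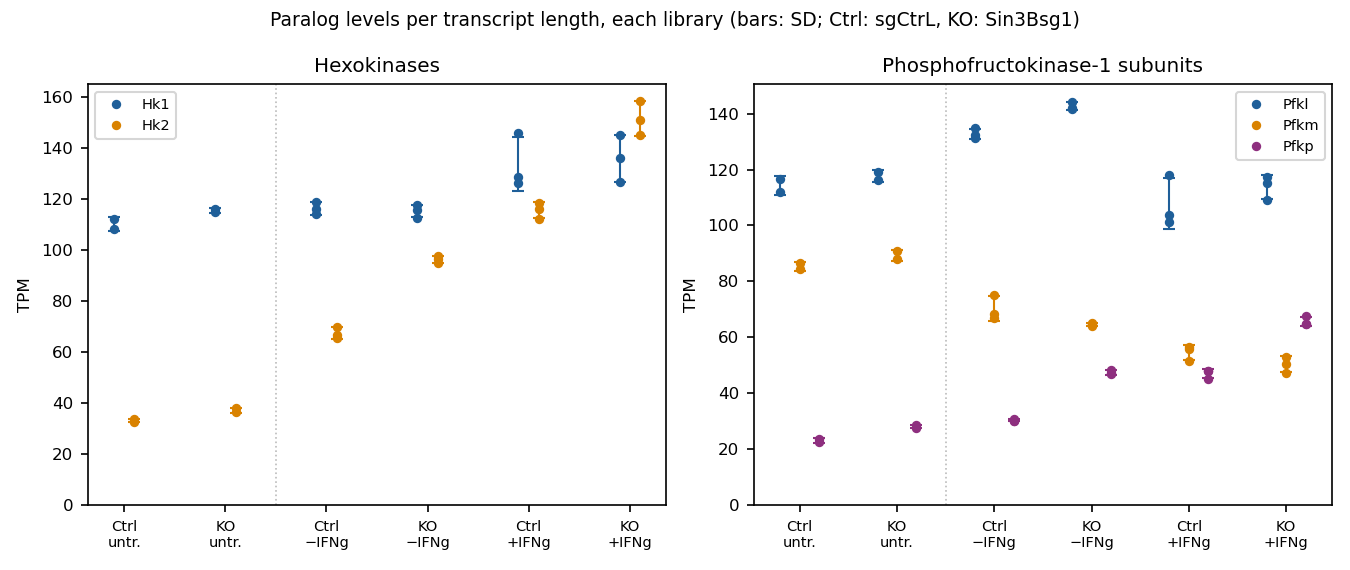
TPM (vertical axes, from 0) of the hexokinases Hk1 and Hk2 and the phosphofructokinase subunits Pfkl, Pfkm and Pfkp in each library, with SD bars, by group; the dotted line separates the experiments. Within the IFNg experiment Hk2 and Pfkp are lowest in sgCtrL without IFNg and highest in Sin3Bsg1 with IFNg, where they pass Hk1 and Pfkm.

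Other paralog pairs were led by the same gene in all 6 groups: Aldoa held 97.8 to 98.8% of the aldolase sum, Eno1 99.8% of the enolase sum, Slc2a1 97.4 to 99.1% of the glucose transporter sum, Pfkfb3 87.8 to 95.7% of its pair, Car12 89.4 to 97.0% and Egln3 80.2 to 88.1%. The 15 enzymes summed to 10867 to 10912 TPM in untreated Sin3Bsg1 and 10875 to 10886 TPM in untreated sgCtrL, and thus overlapped. Without IFNg the sums were 13811 to 14254 TPM in Sin3Bsg1 and 12941 to 13248 TPM in sgCtrL. With IFNg they were 13262 to 13820 TPM in Sin3Bsg1 and 13389, 11889 and 12063 TPM in sgCtrL, so the overlap rested on sgCtrL replicate 1, the library that stood apart. These sums are dominated by the most abundant enzymes, Pkm, Eno1, Ldha, Aldoa and Tpi1.

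Further genes of the pathway came from lists outside the 36, and from each the largest rise and fall that passed are named, among genes averaging 1 CPM or more over the libraries compared. The share of all genes tested that passed was 31.1% in the untreated experiment, 17.2% without IFNg, 16.5% with IFNg, and 30.2% and 28.4% for IFNg in sgCtrL and Sin3Bsg1. Of 13 regulators of HIF, 11 were tested. In the untreated experiment 2 fell (18.2%), in the IFNg experiment without IFNg 2 fell (18.2%), and with IFNg 2 fell and 1 rose (27.3%). Epas1, the sister subunit of Hif1a, was the largest fall in each, at −0.29, −0.37 and −0.43, and Egln2, a further hydroxylase, rose by 0.15 with IFNg. With IFNg against without, 3 regulators rose in sgCtrL (27.3%) and 4 in Sin3Bsg1 (36.4%), led by Cul2, a scaffold of the ligase that destroys HIF, in sgCtrL (0.35) and by Hsp90aa1, a chaperone, in Sin3Bsg1 (0.23), with none lower.

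Of 20 other enzymes of glycolysis and gluconeogenesis, 16 were tested, and 8 rose with none lower in the untreated experiment (50%). Without IFNg 7 rose and 2 fell (56.2%), and with IFNg 5 rose and 1 fell (37.5%). Pklr, the liver and red cell pyruvate kinase, rose most in all 3, by 1.54 ± 0.11, 1.25 ± 0.19 and 1.23 ± 0.23, from 5.00 to 14.6 CPM in the untreated experiment. Pfkfb1, a liver form, was the largest fall, at −0.51 in both settings of the IFNg experiment. With IFNg against without, 1 rose and 3 fell in sgCtrL (25%) and 2 rose and 4 fell in Sin3Bsg1 (37.5%). Pklr fell by 1.41 and 1.43 on the log2 scale, Tigar, a phosphatase that slows glycolysis, rose by 0.39 in sgCtrL, and the hexokinase-like Hkdc1 rose in Sin3Bsg1, from 0.98 to 1.96 CPM (adjusted p = 0.030).

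Of 18 genes of pyruvate and lactate handling, all 18 were tested in the untreated experiment and 17 in the other. In the untreated experiment 4 rose and 3 fell (38.9%), then 2 rose and 3 fell without IFNg (29.4%), and 4 rose and 1 fell with IFNg (29.4%). Slc16a1, a lactate transporter, was lower in all 3, at −0.40, −0.23 and −0.23, and was the largest fall with IFNg. The largest fall in the untreated experiment among those at 1 CPM or more on average was Pdk3 (−0.48), since Slc16a7, a scarce paralog, was under that level, and without IFNg it was Pcx (−0.28). The largest rises were Pdp2, a phosphatase of pyruvate dehydrogenase (0.30), and Ldhd, which uses D-lactate (0.50 and 0.48). With IFNg against without, 4 rose and 2 fell in sgCtrL and 3 rose and 3 fell in Sin3Bsg1 (35.3% each). Slc16a7 fell by 1.59 and 1.14, and Pdk4 rose by 1.13 in sgCtrL and Ldhd by 0.53 in Sin3Bsg1.

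Of 26 other hypoxia-induced genes, 24 were tested in the untreated experiment, where 3 rose and 8 fell (45.8%), and 25 in the other, where 7 rose and 1 fell without IFNg (32%) and 2 rose with IFNg (8%). Tfrc, the transferrin receptor, was the largest rise in the untreated experiment (0.59) and Angptl4, a lipase inhibitor, without IFNg (0.27), and Gbe1, of glycogen synthesis, was the largest fall in both (−0.43 and −0.46). Nrn1, a neuronal growth gene, rose most with IFNg (0.32). With IFNg against without, 9 fell and 1 rose in sgCtrL (40%), and 12 fell and 1 rose in Sin3Bsg1 (52%). The rise was Fam162a in both (0.29 and 0.39), and the largest fall was Ppfia4 in Sin3Bsg1 (−1.26), from 2.49 to 1.03 CPM. In sgCtrL Ppfia4 also fell (−1.23) but averaged under 1 CPM, and the largest fall above that level was Bhlhe40, a transcriptional repressor (−0.42). The interaction of genotype and experiment, which 13.6% of all genes passed, was past the threshold for 10 of 25 genes of this list, from Stc2 (−0.42) to Angptl4 (0.48), for 4 of 16 other enzymes, from Pck2 (−0.26) to Eno3 (0.29), for 2 of 18 pyruvate and lactate genes, Slc16a1 (0.18) and Slc16a7 (1.81), and for 0 of 11 HIF regulators by edgeR, where 6 had an unadjusted p under 0.05.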

How the data were processed

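RNA-seq was analysed in 16 libraries of KPC1199 cells from 2 experiments. The authors deposited estimated counts per gene; per the labels the processing used fastp, HISAT2, StringTie and DESeq2 with mm39, whereas the study's methods name HISAT2, mm9, featureCounts and DESeq2, so build and counter are not settled here. Control columns named for a lacZ guide were taken as sgCtrL, the only other guide. In the untreated table, 324 assembled loci without a gene were left out. The deposited counts were rounded, filtered with filterByExpr, scaled by TMM and fitted per experiment with edgeR 4.0.16 (R 4.3.3) and its quasi-likelihood test, with Benjamini-Hochberg adjustment over all genes tested and a threshold of 0.05; the experiments were fitted together over 55405 shared genes for the interaction. CPM and TPM were computed from these counts and the deposited gene lengths. The fits were tested on simulated data. Alternatives were RLE scaling, library totals, other filters, DESeq2 1.42.0, a replicate block, fits on only the libraries compared and each library left out. The members and lists were chosen with earlier results of these data known. Genes named from the other lists were the largest rise and fall past the threshold at a mean of at least 1 CPM. Promoters came from RefSeq (GRCm38.p6), a build other than that of the counts, and were matched by symbol. Some items are not reported here.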

Additional observations from a re-analysis of the deposited data

Results flagged for a closer look

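The genotype effect differed between the experiments, by the interaction term of edgeR's quasi-likelihood test, for 16 genes. The value is the effect without IFNg minus that in the untreated experiment, on the log2 scale. It was 1.32 for Slc2a3, 1.12 for Car12, 0.56 for Pfkfb4, 0.41 for Bnip3, 0.35 for Pfkp, 0.34 for Hk2, 0.26 for Egln3, 0.23 for Gpi1, 0.23 for Ak4, 0.22 for Slc16a3, 0.18 for Pfkfb3, 0.16 for Ldha and 0.15 for Kdm3a. It was −0.34 for Ndrg1, −0.20 for Pfkm and −0.18 for Hif1a. Groups held 2 or 3 libraries, so single libraries were not tested as outliers.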

How the results depend on the processing

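Of 88 calls of these genes over the comparisons, 59 held under every other scaling, filter, tool, block, subset of libraries and left-out library run, and 29 were lost under at least 1 of these; none changed direction. The stricter rule on fold is not in that count. A stricter rule, a fold of 1.5 or more and p under 0.05 before adjustment, left 1 gene in the untreated experiment, 2 without IFNg, 1 with IFNg, 5 for IFNg in sgCtrL and 4 for IFNg in Sin3Bsg1, of 34 tested in each. Over all genes this rule left 1334 of 14588 in the untreated experiment. In the other comparisons it left 1125, 1037, 1663 and 1606 of 14912, in the same order. The share of these genes was thus below that of all genes in each genotype comparison and above it in both IFNg comparisons. Fitting only the libraries compared gave 17 genes without IFNg (15 higher, 2 lower) and 5 with IFNg, and moved the calls over all genes from 2568 to 3996 and from 2464 to 1500. When single libraries were dropped, the calls ranged from 13 to 17 in the untreated experiment, 7 to 15 without IFNg, 10 to 19 with IFNg, 13 to 22 and 13 to 20 for IFNg in sgCtrL and Sin3Bsg1, 0 to 0 for the interaction of genotype and IFNg, and 12 to 19 for that of genotype and experiment; where 1 library remained in an arm, it was assumed to vary like the other groups. Without replicate 1 of sgCtrL with IFNg the counts were 15, 19, 22 and 20 in the 4 comparisons of the IFNg experiment, and 7 was reached without IFNg when replicate 1 of Sin3Bsg1 without IFNg was left out. Over all genes, the interaction of genotype and IFNg gave 17 calls, 110 with no filter, 32 by DESeq2 and 1 to 33 with a library left out. Whether replicate numbers pair the samples was not settled (correlations of same-numbered deviations from −0.03 to 0.17), and the main fits used no pairing. With the replicate block the counts were 19, 11, 12, 18, 14, 0 and 14 against 17, 11, 13, 17, 14, 0 and 16, and the block lost the calls of Pfkfb4 with IFNg (adjusted p = 0.0529) and, for the interaction of genotype and experiment, of Kdm3a (0.0653) and Ak4 (0.0728). In the IFNg effect in sgCtrL every sample correlated best with its own number. In the genotype comparison with IFNg replicates 1 and 2 did (0.17 and 0.15) and replicate 3 did not, and without IFNg no sample did. The causes were not tested. The filter on low counts left Adm untested in the untreated experiment and Car9 in the IFNg experiment, so no difference could be read for them there.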
